A study of Mus musculus with 4 samples.

Results

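The mitochondrial ribosomal protein genes encode the protein part of the ribosome that works inside mitochondria. They were taken as the protein-coding RefSeq genes of the mouse build mm10 whose symbol is Mrpl or Mrps followed by a number. The rule uses names only and no measured value. It gave 78 of 21887 protein-coding genes, 49 with an Mrpl symbol (large subunit) and 29 with an Mrps symbol (small subunit). With Mrps30 and Mrps18a moved to the large subunit, where their proteins sit in the particle, the split is 51 and 27. The 27 still include Mrps36, whose product has been assigned to another complex, as given below.

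Mitochondrial ribosomes translate the few messages of the mitochondrial genome, which encode core subunits of the respiratory chain and of ATP synthase. Their RNAs are made in the organelle, whereas every protein of the particle is encoded in the nucleus, made in the cytosol and imported. Some of these proteins belong to families also found in bacterial ribosomes, and others are found in mitochondrial ribosomes only. H3K79me2, the dimethylation of lysine 79 of histone H3, is laid down by the methyltransferase DOT1L near the 5′ end of genes that are being transcribed. It is read here as a mark on the chromatin of these genes, not as a level of their RNA.

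H3K79me2 was mapped by chromatin immunoprecipitation and sequencing (ChIP-seq) in bulk mouse thymocytes. Haematopoietic stem cells of C57BL/6 mice were grown on OP9-DL1 cells, a stromal line that carries a Notch ligand, in αMEM to which Flt-3L (5 ng/mL) and IL-7 (2 ng/mL) had been added, and were harvested at the DN3 stage of T cell development. The control cells received the vehicle DMSO and the inhibitor cells received A939572, an inhibitor of the desaturase SCD1. Each condition has 1 ChIP library, and the 2 input libraries are not analysed here. The sources used here give neither the age and number of the mice nor the dose of the compound.

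Each ChIP library has a list of broad peaks, which the authors called separately. The control list holds 124962 peaks, of which 803 on chromosomes 1 to 19, X and Y (0.643%) have a q-value of at most 0.05. The inhibitor list holds 35018 peaks, of which 6527 (18.6%) pass the same q. Both lists cover a like length of genome, 234.7 Mb in the control and 233.6 Mb in the inhibitor, but at that q they cover 11.1 and 153.3 Mb. Read numbers are not part of the lists, and the depth behind each peak is therefore unknown. With 1 library per condition there was no spread between replicates and no test, and a difference between the lists may belong to the treatment, the library or its depth, which cannot be told apart. In a bulk library, more cells that carry the mark and more of the mark per cell cannot be told apart either. Of 16 T lineage and DN3 marker genes, 10 had at least 50% of the gene body under control peaks and 14 under inhibitor peaks, and at that q it was 7 and 13. Of 10 markers of OP9 stroma, 0 and 1 (Thbs1) were so covered. Of 7 B cell markers and 7 myeloid markers it was 0 in both lists, and of 7 erythroid and megakaryocyte markers it was 0 and 1 (Hbb-bt, in weak peaks). At that q, 0 markers of these other lineages were covered over 50%. Below that limit, 2 of the 10 OP9 stroma markers had inhibitor coverage at that q, Thbs1 (45.1%) and Pdgfrb (44.2%), and 0 had control coverage.

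The promoters of 5 genes are shown because they carry the extremes of the data. The start sites of Mrpl51, Mrpl32 and Mrps18b were the only member start sites under a control peak with a q of at most 0.05. Mrpl52 was the single member with no peak in either list. Mrps11 starts head to head with another member, Mrpl46. Each sequence runs 5′ to 3′ along the gene, from 250 bases before the RefSeq start site to 50 bases after it, in build GRCm38.p6 (mm10). They lie at chr6:125191950-125192249, plus strand for Mrpl51, chr13:14612988-14613287, minus strand for Mrpl32, chr17:35916391-35916690, minus strand for Mrps18b, chr14:54426659-54426958, plus strand for Mrpl52 and chr7:78782881-78783180, plus strand for Mrps11. Capitals mark matches, on either strand, to 4 motifs: CCGGAAG (ETS factors such as GABPA), the NRF1 palindrome, AAGATGGCG (YY1) and GGGCGG (SP1 family).
Mrpl51: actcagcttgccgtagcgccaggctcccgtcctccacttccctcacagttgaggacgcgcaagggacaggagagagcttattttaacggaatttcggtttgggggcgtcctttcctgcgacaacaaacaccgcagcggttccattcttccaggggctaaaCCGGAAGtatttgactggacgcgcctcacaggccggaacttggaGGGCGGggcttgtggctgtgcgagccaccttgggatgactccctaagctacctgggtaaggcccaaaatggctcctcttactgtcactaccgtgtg
Mrpl32: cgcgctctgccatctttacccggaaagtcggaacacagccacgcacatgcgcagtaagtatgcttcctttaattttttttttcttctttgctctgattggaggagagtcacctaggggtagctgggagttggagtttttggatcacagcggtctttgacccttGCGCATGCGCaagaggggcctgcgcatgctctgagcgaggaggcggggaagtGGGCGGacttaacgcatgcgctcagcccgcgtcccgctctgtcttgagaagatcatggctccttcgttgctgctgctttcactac
Mrps18b: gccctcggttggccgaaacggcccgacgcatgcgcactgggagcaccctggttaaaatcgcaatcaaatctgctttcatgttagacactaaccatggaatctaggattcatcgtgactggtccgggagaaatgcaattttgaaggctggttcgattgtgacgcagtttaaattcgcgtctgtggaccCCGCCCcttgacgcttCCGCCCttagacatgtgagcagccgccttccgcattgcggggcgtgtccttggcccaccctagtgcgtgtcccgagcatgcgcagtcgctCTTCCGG
Mrpl52: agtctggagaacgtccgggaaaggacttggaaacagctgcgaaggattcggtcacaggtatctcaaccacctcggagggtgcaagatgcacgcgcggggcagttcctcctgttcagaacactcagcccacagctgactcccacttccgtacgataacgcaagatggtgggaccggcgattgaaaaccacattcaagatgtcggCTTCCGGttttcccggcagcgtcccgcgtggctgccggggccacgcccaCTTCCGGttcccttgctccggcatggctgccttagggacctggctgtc
Mrps11: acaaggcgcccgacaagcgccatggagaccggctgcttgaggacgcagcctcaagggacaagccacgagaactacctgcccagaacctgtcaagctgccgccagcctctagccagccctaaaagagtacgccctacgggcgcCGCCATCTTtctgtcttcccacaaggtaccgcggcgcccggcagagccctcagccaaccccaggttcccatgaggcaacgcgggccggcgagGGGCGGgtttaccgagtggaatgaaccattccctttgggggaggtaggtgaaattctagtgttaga

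The Mrpl51 promoter held 1 ETS match and 1 SP1 match, and the Mrpl32 promoter held 1 NRF1 match and 1 SP1 match. Mrps18b held 2 SP1 matches upstream of its start and 1 ETS match downstream of it. The promoter of Mrpl52, the gene without a peak, held 2 ETS matches. The promoter of Mrps11 held 1 YY1 match and 1 SP1 match. Across the 69 members with a promoter in the RefSeq table, 24 (34.8%) held the ETS motif, against 11.9% of 17492 promoters of coding genes. The NRF1 motif was in 13 members (18.8%, against 6.66%), the YY1 motif in 8 (11.6%, against 1.92%) and the SP1 motif in 34 (49.3%, against 46.3%). None of the 4 was in 14 members (20.3%, against 47.4%). The same ETS letters were in 24 of 63 promoters of cytosolic ribosomal protein genes and in 16 of 64 of respiratory chain subunit genes. For the NRF1 letters these counts were 5 of 63 and 16 of 64. Members with the ETS letters had a median of 74.1% of their body under inhibitor peaks (n = 24), and members without them 65.1% (n = 45). For the NRF1 letters these medians were 74.2% and 63.0%, for the SP1 letters 70.9% and 61.0%, and for the YY1 letters 55.1% and 67.7%. The control medians with and without the ETS letters were 3.06% and 10.7%. For the NRF1 letters they were 8.82% and 3.64%, for the SP1 letters 1.87% and 8.82%, and for the YY1 letters 6.67% and 3.74%. The order thus differed between motifs and, for all of them but NRF1, between the lists. A match is only a string of letters in a window of 300 bases, and no binding was measured.

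Most members had more of their body under inhibitor peaks than under control peaks. Over the 78 members, the median covered part of the body was 3.96% in control and 62.1% in inhibitor peaks. Over all protein-coding genes the same medians were 2.24% and 0.446%. Taking the members 1 by 1, the inhibitor value minus the control value had a median of 42.8 percentage points (quartiles 28.0 and 72.3), against a median of 0 over all coding genes. The inhibitor value was the higher of the pair in 76 members, and both values were equal in 2 members, Mrpl51 at 100% and Mrpl52 at 0%. In 62 of 78 members (79.5%) the inhibitor value was at least 25 points higher, against a background of 30.1% of all coding genes and 35.2% of coding genes of like length (between 2.35 and 23.5 kb). In 0 of 78 members was the control value at least 25 points higher, against a background of 3.07% (2.86% at like length), and a count of 0 allows a share of up to 3.85% (3 counts of 78). At a q of at most 0.05 the first count was 60 of 78, against a background of 26.3%. With peaks that reach another coding gene left out, the counts were 31 of 78 higher with inhibitor (background 19.3%) and 3 higher with control (background 5.25%). The difference then turned negative for Mrpl30, Mrpl24, Mrpl12, Mrps14, Mrpl44 and Mrps11.

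**Figure D1:**
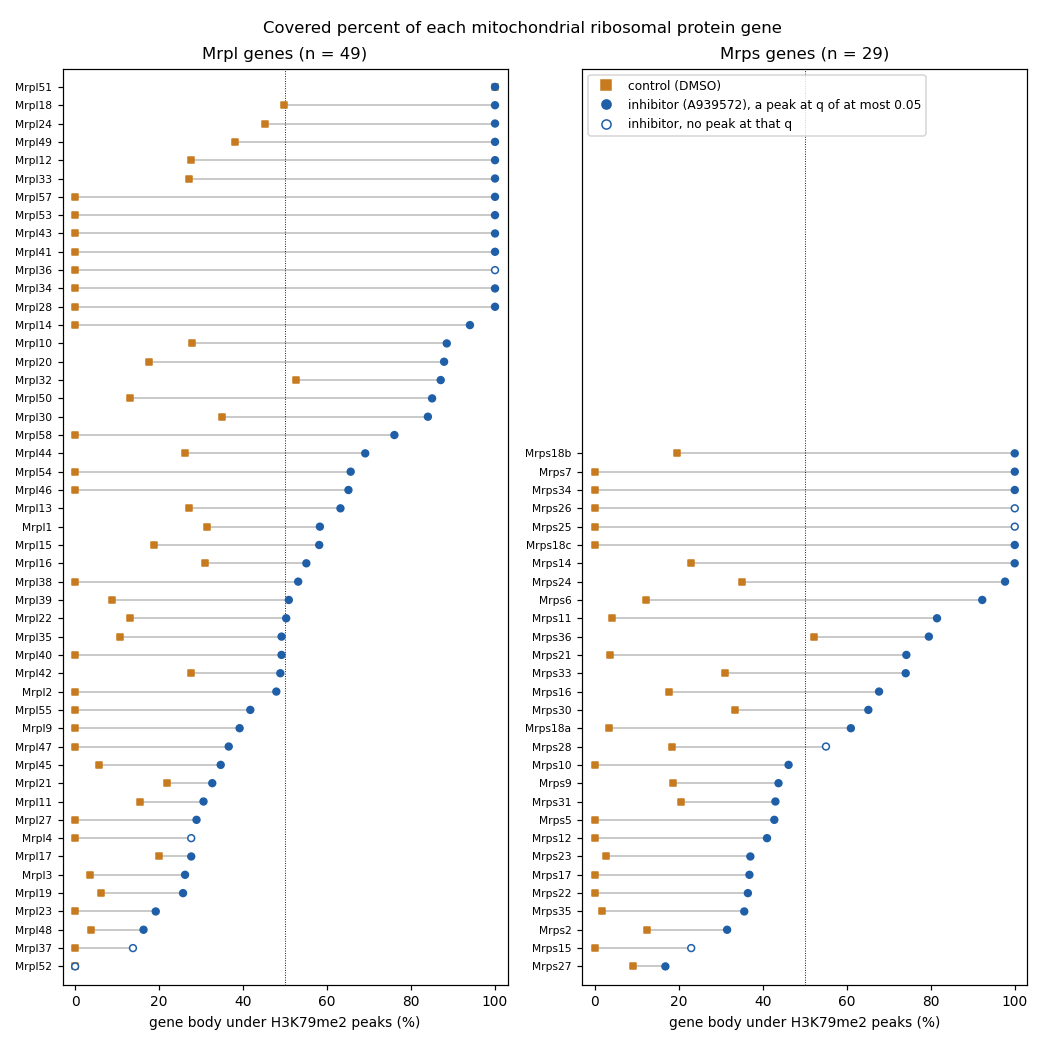
Percent of each gene body under H3K79me2 peaks (x axis) for the 49 Mrpl and 29 Mrps genes (1 per line), with squares for the control library, circles for the inhibitor library and hollow circles where no inhibitor peak passed a q of 0.05. Most control squares lie below the dotted line at 50%, and the inhibitor circle lies to the right of the square for all members but Mrpl51 and Mrpl52, where they coincide.

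Genes with at least 50% of their body under peaks are called marked. Control peaks marked 3 of 78 members (3.85%, 95% Wilson interval 1.32 to 10.7%, which covers counting over genes only), against a background of 5.47% of all coding genes and 5.32% of those of like length. Inhibitor peaks marked 47 (60.3%, interval 49.2 to 70.4%), against a background of 26.1% and 29.5%. The control share was thus near its background, and the inhibitor share was above it. With peaks at a q of at most 0.05, 2 members had control marking, against a background of 1.33% (1.81% at like length). Inhibitor peaks at that q marked 39 members, against a background of 19.6% (24.4%). All 3 members marked in the control list were also marked in the inhibitor list, and 44 were marked in the inhibitor list alone. Marking in both lists or in 1 alone was not counted over all coding genes. With peaks that reach another coding gene left out, control peaks marked 1 member (background 4.53%) and inhibitor peaks 17 (background 16%).

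Any covered base was found in 45 of 78 members in the control list (57.7%, interval 46.6 to 68.0%), against a background of 55.3% of all coding genes and 42.0% of those of like length. Inhibitor peaks gave it in 77 of 78 (98.7%), against a background of 51.4% and 50.5%. The control share was thus near that of all coding genes, which are longer, and above that of genes of like length. At a q of at most 0.05 the control list had a peak over 3 members (3.85%, background 3.92%) and the inhibitor list over 70 (89.7%, background 34.7%). Peaks lay over 45 members in both lists, over 32 in the inhibitor list only and over 0 in the control list only. This split by both lists was not counted over all coding genes, so it has no background here.

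The members marked in the control list were Mrpl51, Mrpl32 and Mrps36. Mrpl51, a large subunit gene of 2.19 kb on chr6:125192200-125194392, was covered over 100% in both lists. Its control peak, chr6:125189009-125194479, was 5.47 kb wide with a fold of 2.58 and a −log10 q of 4.38. Its inhibitor peak, chr6:125169620-125196613, was 27.0 kb wide with a fold of 2.83 and a −log10 q of 5.70. Fold is the authors' enrichment of a peak over its local background and is used only to describe peaks within a list. The wider inhibitor peak reached beyond the gene at both ends.

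Mrpl32, whose protein product is trimmed by the m-AAA protease before it enters the large subunit, was covered over 52.6% in control and 87.1% in inhibitor peaks. Its control peak was 4.59 kb wide with a −log10 q of 1.32, just over the limit of 1.301. Its inhibitor peak was 14.7 kb wide with a −log10 q of 8.05. Mrps36, which carries a small subunit name but whose product has been assigned to the 2-oxoglutarate dehydrogenase complex, was covered over 52.3% and 79.5%. Its control peaks were weak, with a highest −log10 q of 0.001, and its highest inhibitor −log10 q was 3.73. Of these 3 genes, Mrps36 thus kept no control coverage at a q of at most 0.05.

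Mrps18b, one of 3 members related to bacterial S18 together with Mrps18a and Mrps18c, was the remaining gene with a control peak at that q. Its control coverage was 19.5%, from a peak of 3.23 kb with a fold of 2.45 and a −log10 q of 7.74. In the inhibitor list it lay entirely under a peak of 26.6 kb with a fold of 2.50 and a −log10 q of 7.02. Mrps18c was covered over 0% and 100%, and Mrps18a over 3.37% and 61.0%. The 3 related genes had unlike control values, and inhibitor peaks marked each of them.

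Inhibitor peaks covered 19 members over their whole body (24.4%, against a background of 6.9%), and 12 of these had no control peak at all. The share without a control peak was not counted over all fully covered coding genes. Control peaks covered 1 member whole (background 0.585%). The 12 genes were Mrpl28, Mrpl34, Mrpl36, Mrpl41, Mrpl43, Mrpl53, Mrpl57, Mrps7, Mrps18c, Mrps25, Mrps26 and Mrps34. For 9 of them the inhibitor peak passed a q of 0.05, and for Mrpl36, Mrps25 and Mrps26 it did not. The other 7 had control values between 19.5% (Mrps18b) and 100% (Mrpl51), with Mrpl12, Mrpl18, Mrpl24, Mrpl33 and Mrpl49 between them. Another 28 members were marked without being fully covered, 30 had an inhibitor peak over less than 50% of the body, and 1 had none.

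Members with well known roles lay across this range. Mrpl12, of the L7/L12 stalk to which translation factors bind, was covered over 27.6% in control and 100% in inhibitor peaks. Mrpl58, a peptidyl-tRNA hydrolase built into the large subunit, was covered over 0% and 76.0%. Mrpl44, which has an RNase III-like fold, was covered over 26.3% and 69.1%. These 3 large subunit genes were marked in the inhibitor list only. Mrps34, a small subunit gene mutated in human mitochondrial disease, was covered over 0% and 100%. Mrps16, a small subunit gene also mutated in human disease, was covered over 17.7% and 67.7%. Mrps12, of the decoding centre, was covered over 0% and 41.0%. Inhibitor peaks marked Mrps34 and Mrps16 but not Mrps12. Mrps22, another human disease gene, was covered over 0% and 36.4%. Mrpl11, of the site that engages the GTPase factors, was covered over 15.5% and 30.6%. Mrpl3, a large subunit gene mutated in human disease, was covered over 3.54% and 26.2%. Each of these last 3 had 1 inhibitor peak that passed a q of 0.05, and such peaks alone covered 19.7% of Mrps22, 30.6% of Mrpl11 and 16.5% of Mrpl3.

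At the low end, 8 members had no inhibitor peak at a q of at most 0.05. Mrpl52 was covered over 0% in both lists. Mrpl37 was covered over 0% and 13.8%, Mrps15 over 0% and 22.9%, and Mrpl4 over 0% and 27.6%. Mrps28, the longest member at 121.7 kb, was covered over 18.3% and 55.0%, all by peaks above that q. Mrpl36, Mrps25 and Mrps26 made up the rest. Members near the 50% limit in the inhibitor list were Mrpl22 (50.3%), Mrpl39 (50.9%) and Mrpl38 (53.1%) inside it, and Mrpl35 (49.2%), Mrpl40 (49.2%) and Mrpl42 (48.9%) outside it. In the control list Mrpl18 (49.7%), Mrpl24 (45.2%) and Mrpl49 (38.1%) lay just outside.

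The large and small subunit genes had like values. Control peaks marked 2 of 49 Mrpl genes and 1 of 29 Mrps genes. Inhibitor peaks marked 30 of 49 (61.2%, interval 47.2 to 73.6%) and 17 of 29 (58.6%, interval 40.7 to 74.5%). The median difference between the lists was 42.1 points for Mrpl genes and 43.0 points for Mrps genes. Among the 48 members of families shared with bacteria, 1 had control marking and 28 had inhibitor marking. Among the 30 mitochondria-specific members, with which Mrps36 was counted, it was 2 and 19. The median difference was 42.2 points for the first class and 42.9 points for the second. The intervals of the marked shares overlapped in both splits.

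The position of the peaks within the genes was read for the 69 members whose start site and strand the RefSeq promoter table gives. The other members, Mrpl4, Mrpl13, Mrpl15, Mrpl19, Mrpl38, Mrpl54, Mrps28, Mrps34 and Mrps35, enter no value by start site. A peak lay in the first 1 kb from the start in 68 of 69 members in the inhibitor list (98.6%, against a background of 42.4% of coding genes with a start in the table). For control peaks it was 28 of 69 (40.6%, against a background of 21.3%). At a q of at most 0.05 these counts were 63 (91.3%, background 32.5%) and 3 (4.35%, background 3.38%). The single member with no inhibitor peak in the first 1 kb was Mrpl52.

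The start base itself was under an inhibitor peak in 49 of 69 members (71.0%, background 29.2%) and under a control peak in 18 (26.1%, background 7.37%). At a q of at most 0.05 it was 46 (66.7%, background 25.1%) and 3 (4.35%, background 1.46%). Among the 20 members whose start base was bare in the inhibitor list, 19 had a peak that began 1 to 242 bp downstream, with a median of 86 bp. Mrps14 had the shortest of these distances, 1 bp, and Mrpl45 the longest, 242 bp. In these genes the inhibitor peak began close to the start site and ran into the gene. In the control list 20 members had a bare start and a peak beginning within 5 kb of it, 234 to 4893 bp downstream. These control peaks were all weak, with a highest −log10 q of 0.276 (Mrpl11). The inhibitor peaks that began after a bare start passed a q of 0.05, except those of Mrpl37 and Mrps15. Peaks that begin after a bare start were not counted over all coding genes.

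**Figure D2:**
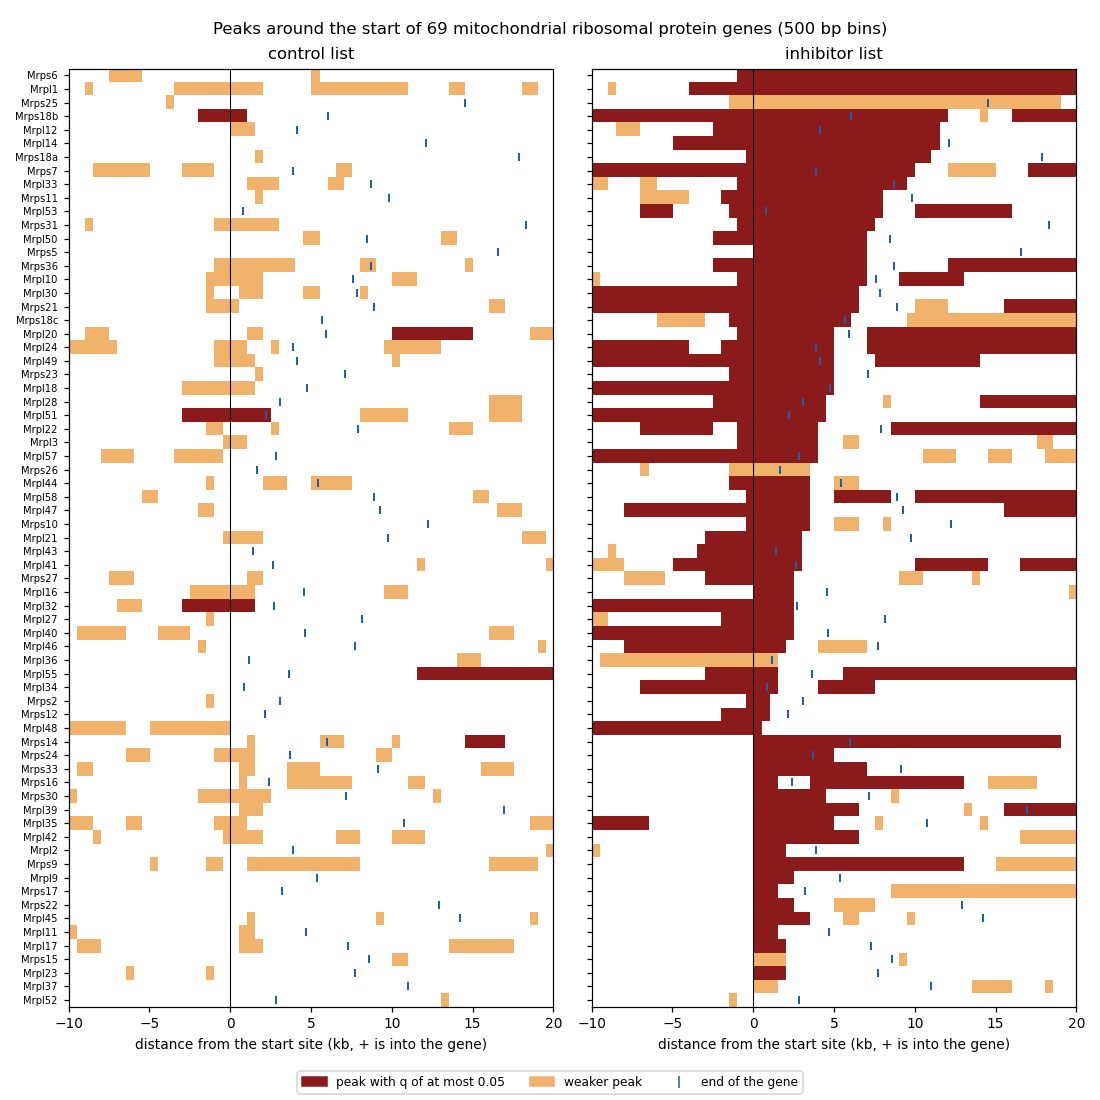
Peaks in bins of 500 bp from 10 kb upstream to 20 kb downstream of the start site (x axis) for 69 mitochondrial ribosomal protein genes (1 per line, in the order of how far the inhibitor peak at the start reaches downstream), with dark bins at least 50% under a peak with a q of at most 0.05, light bins at least 50% under a weaker peak, and a tick at the end of each gene under 20 kb. In the inhibitor panel nearly every line is filled just downstream of the start and only Mrpl52 is empty there, while the control panel has 3 dark lines at the start, Mrpl51, Mrpl32 and Mrps18b.

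Coverage was highest just downstream of the start. In the inhibitor list the mean covered share of a 500 bp bin was 67.8% just upstream of the start, 96.8% between 0.5 and 1.0 kb downstream, and 50.3% between 4.5 and 5.0 kb downstream. For control peaks the same bins had means of 27.0%, 34.1% and 8.14%. Split at the midpoint of the gene, the inhibitor medians were 97.8% for the 5′ side and 42.1% for the 3′ side. The 5′ side was covered more in 45 of 69 members, the 3′ side in 5, and both equally in 19. Control peaks covered the 5′ side more in 31 members and the 3′ side in 8. The 2 sides were not compared over all coding genes, so these counts do not set the members apart. A window of the first 5 kb was taken from the 5′ end of the gene body, which is not always the start site used above. In it, 53 of 69 members were marked in the inhibitor list (76.8%, background 36.6%) and 8 in the control list (11.6%, background 13.0%). In Mrps23 the start site lies 10282 bp inside the body, and this window was covered over 0% in both lists.

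**Figure D3:**
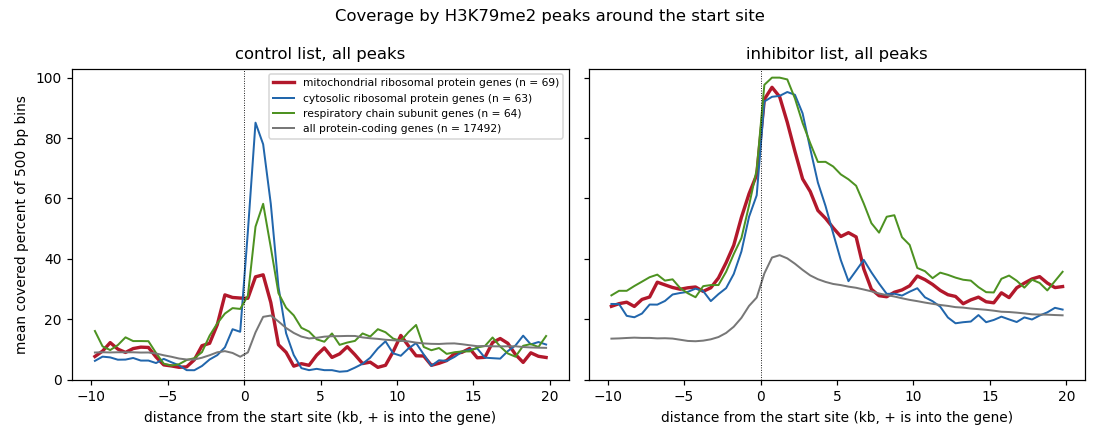
Mean percent of each 500 bp bin under peaks (y axis) by distance from the start site (x axis), for 69 mitochondrial ribosomal protein genes, 63 cytosolic ribosomal protein genes, 64 respiratory chain subunit genes and 17492 coding genes, in the control list (left) and the inhibitor list (right). Between 0.5 and 1.0 kb downstream the first 3 groups reach 96.8%, 93.7% and 100% in the inhibitor list and 34.1%, 85.1% and 50.7% in the control list.

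The 2 groups most like the mitochondrial ribosomal protein genes in function had larger marked shares in both lists when all peaks were counted. Of 83 genes of the cytosolic ribosome, 42 had control marking (50.6%, interval 40.1 to 61.1%) and 80 had inhibitor marking. Of 77 genes of the respiratory chain and ATP synthase, 13 had control marking (16.9%, interval 10.1 to 26.8%) and 69 had inhibitor marking. The interval of the mitochondrial ribosomal protein genes in the control list, 1.32 to 10.7%, lay below that of the cytosolic group and overlapped that of the respiratory group. Their inhibitor interval, 49.2 to 70.4%, lay below those of both (89.9 to 98.8% and 80.8 to 94.6%). At a q of at most 0.05 control peaks marked 15 cytosolic, 1 respiratory and 2 mitochondrial ribosomal protein genes. Inhibitor peaks at that q marked 80, 60 and 39. The control intervals of the last 2 groups overlapped at that q, so 1 against 2 marked genes gives them no order. Control peaks at that q lay over any base of 6 of 77 respiratory genes and 3 of 78 mitochondrial ribosomal protein genes. These intervals count genes of 1 library as independent. The cytosolic genes are shorter, with a median length of 3.17 kb against 7.69 kb, and the respiratory genes are about as long, at 7.18 kb. The median differences between the lists were 43.7 points for the cytosolic group and 58.8 points for the respiratory group, beside 42.8 points for the mitochondrial ribosomal protein genes.

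The marked share differed with gene length. Among members under 5 kb, 18 of 25 were marked in the inhibitor list (72.0%, against 18.1% of coding genes of that length). Between 5 and 10 kb it was 20 of 30 (66.7%, against 29.2%). At 10 kb or more it was 9 of 23 (39.1%, against 28.3%), and at a q of at most 0.05 it was 21.7% against 19.9%. The median covered part of these long members was 46.1%, against 7.98% of all coding genes of that length. The excess of long members over other long genes was thus smaller in the marked share than in the median. The width of the widest inhibitor peak differed little between the classes, with medians of 7.61, 6.53 and 7.71 kb. In some long members such a peak left most of the body bare. In Mrps27 a peak of 5.68 kb at the start lay over a gene of 70.8 kb, and 16.8% of the body was covered in all. Mrps25, of 14.5 kb, instead lay whole under a peak of 20.2 kb, which did not pass a q of 0.05. Mrpl48, of 62.5 kb, was covered over 3.74% in control and 16.3% in inhibitor peaks.

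At a q of at most 0.05 the inhibitor peaks over members were narrower and of lower fold than the list's peaks at that q in general. With all peaks counted they were wider and of higher fold than the whole list. Over the 77 members with one, the widest inhibitor peak had a median width of 7.24 kb (1.20 to 39.9 kb), and the highest fold had a median of 2.56 (1.72 to 3.61). Over the 45 members with a control peak, the widest had a median of 1.91 kb (0.411 to 6.87 kb) and the highest fold a median of 1.66 (1.43 to 2.58). Counted once each, 122 inhibitor peaks lay over members, of which 71 (58.2%) passed a q of 0.05, against 18.6% of the whole list. Those 71 had a median width of 6.76 kb and a median fold of 2.59, against 14.1 kb and 2.81 for all inhibitor peaks at that q. Without a limit on q, the 122 had medians of 4.51 kb and 2.28, against 1.76 kb and 1.66 for all inhibitor peaks. Of 85 control peaks over members, 3 (3.53%) passed, against 0.643% of the whole list. An inhibitor peak overlapped 69 of these 85 control peaks (81.2%), against 21.3% of all control peaks. The values for whole lists include peaks outside coding genes, and none was taken over the peaks in coding genes alone.

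At stricter limits the members did not stand above the background. With peaks of −log10 q of at least 5, 10 of 78 were marked in the inhibitor list (12.8%), against a background of 11%. With peaks of fold of at least 3 it was 7 of 78 (8.97%), against a background of 10.6%. Both counts were 0 for control peaks, against backgrounds of 0.557% and 0.461%. The strongest peak over a member was that of Mrpl49, 14978 bp wide with a fold of 3.61 and a −log10 q of 10.2. Next in fold was that of Mrps7, of the head of the small subunit, at 30.0 kb and 3.59. Mrpl58 followed at 3.35 and Mrps14 at 3.29. The widest was the 39.9 kb peak of Mrps6, with a fold of 2.33, and Mrpl1 lay under one of 34.0 kb.

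Mitochondrial ribosomal protein genes lie close to other genes, and a broad peak often reached a neighbour. Of the 78 members, 20 overlap another coding gene (25.6%, against 17.5% of all coding genes) and 45 have one within 500 bp (57.7%, against 27.8%). The widest inhibitor peak was wider than the gene itself in 35 of 77 members, and it reached another coding gene in 36 of 77. It reached 2 or more others in 7. The Mrps34 gene of 1.17 kb lay under a peak of 13.7 kb that also reached Eme2, Mapk8ip3, Nme3, Nubp2 and Spsb3. The Mrpl49 peak also reached Fau, Syvn1, Tm7sf2 and Znhit2, and Fau encodes a protein of the cytosolic small subunit. Mrpl34, of 0.828 kb, lay under a peak of 8.54 kb that also reached Abhd8. For these genes the peak cannot be given to 1 gene. The widest control peak reached another coding gene in 8 of 45 members. How wide the widest peak was beside its gene, and what it reached, was not counted over all coding genes. These counts of peaks therefore have no background here and do not set the members apart.

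**Figure D4:**
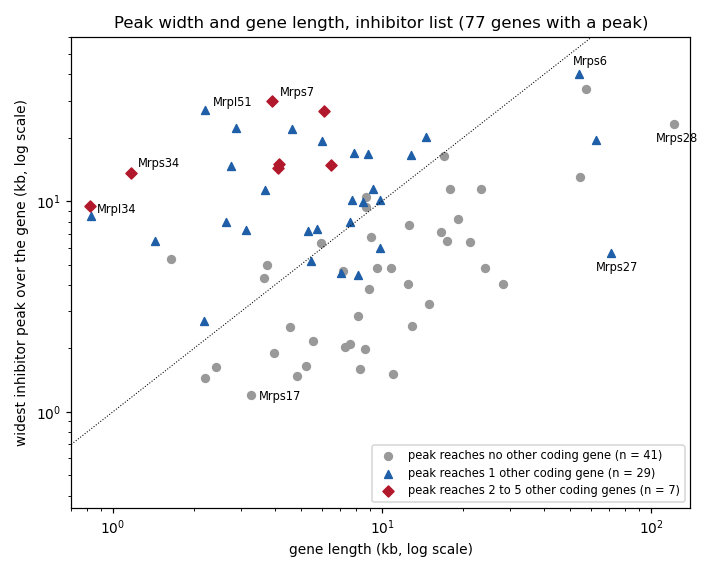
Width of the widest inhibitor peak over each of 77 members (y axis, log scale) against the length of the gene (x axis, log scale), with the dotted line where both are equal and the shape and colour showing how many other coding genes the peak reaches (0 for 41 members, 1 for 29 and 2 to 5 for 7). Short genes such as Mrps34 and Mrps7 lie above the line under peaks of 13.7 and 30.0 kb, and long genes such as Mrps27 and Mrps28 lie below it.

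A divergent partner, a coding gene that starts within 1 kb on the opposite strand and runs the other way, was found for 23 of 69 members (33.3%), against 7.52% of coding genes with a start in the table. The start base was under an inhibitor peak in 21 of the 23 (91.3%), against 73.7% of all coding genes with such a partner. Without a partner it was 28 of 46 (60.9%), against 25.6%. Where the start was covered, the inhibitor peak reached a median of 8.04 kb upstream with a partner (n = 21) and 1.48 kb without (n = 28). Downstream, into the member, the medians were 4.41 and 4.87 kb. All 3 member starts under a control peak with a q of at most 0.05 belong to members with a partner (3 of 23, 13.0%). Over all coding genes that share was 3.73% with a partner and 1.28% without. With all control peaks, the start was covered in 6 of 23 members with a partner and in 12 of 46 without, 26.1% each. The same shares over all coding genes were 13.9% and 6.84%. Mrpl51 starts 614 bp from Ncapd2, a condensin subunit, Mrpl32 starts 205 bp from Psma2, a proteasome subunit, and Mrps18b starts 756 bp from Ppp1r10, a regulator of protein phosphatase 1.

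Among the remaining pairs, Mrpl46 and Mrps11 start 42 bp apart and lay under 1 inhibitor peak of 10.2 kb, chr7:78780990-78791162, with a fold of 2.83. Mrpl46 was covered over 0% in control and 65.1% in inhibitor peaks, and Mrps11 over 4.17% and 81.5%. The peak thus covered the start of both members. Mrps12 starts 147 bp from Sars2, the mitochondrial seryl-tRNA synthetase, which was covered over 0% and 13.9%. Mrpl47 starts 308 bp from Ndufb5, a complex I subunit, and was covered over 0% and 36.6%. Mrpl18 starts 238 bp from Tcp1, a chaperonin subunit, and was covered over 49.7% and 100%.

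The other genes of mitochondrial gene expression were read from 5 lists. Of 5 proteins of the mitochondrial ribosome with other symbols, 1 had control marking and 5 had inhibitor marking. Gadd45gip1 was covered over 0% and 100%, and Chchd1 over 67.6% and 100%. Of 27 factors of ribosome assembly and rRNA modification, 0 and 11 were marked. The rRNA methyltransferase Mrm2 and the helicase Ddx28 were covered over 0% and 100%, whereas Mettl15, another rRNA methyltransferase, was covered over 27.5% and 4.15%. Of 12 translation factors 0 and 5 were marked, with the elongation factor Tsfm at 0% and 54.2%. Of 22 genes for aminoacyl-tRNA synthesis 0 and 4 were marked, with Gatc at 0% and 100%. Of 18 genes of mitochondrial DNA and RNA maintenance 1 and 12 were marked, with the single-strand DNA binding protein Ssbp1 at 22.9% and 95.1%. In the 5 lists, 5, 18, 7, 10 and 12 genes had an inhibitor value at least 25 points higher, and 0 had a control value higher by as much. Their median lengths were 3.20, 11.9, 17.5, 30.2 and 10.9 kb, and the list of the longest genes had the smallest marked share.

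**Figure D5:**
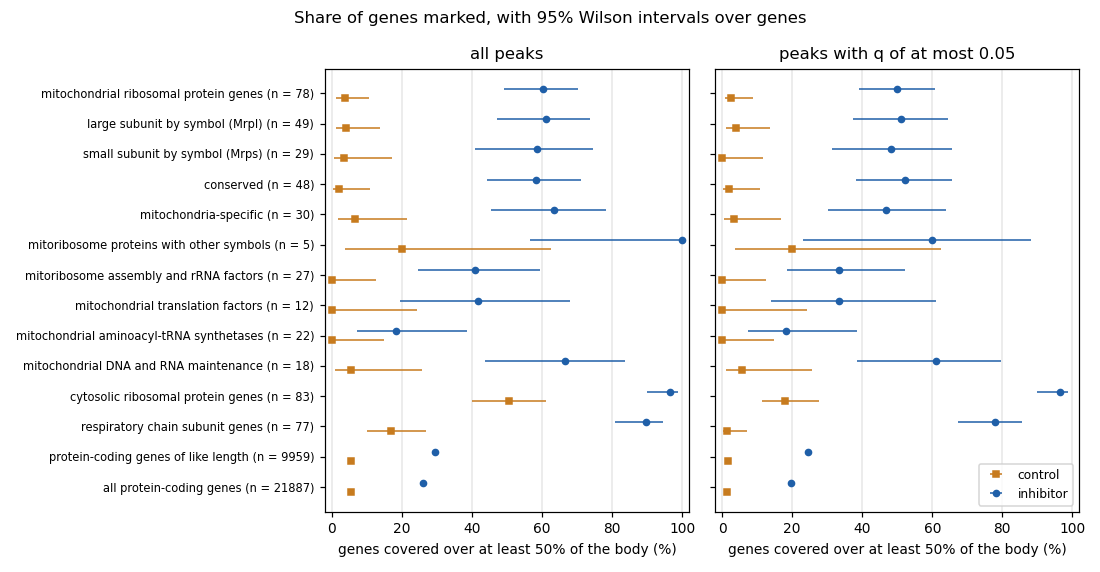
Share of genes covered over at least 50% of the body (x axis, with 95% Wilson intervals over genes) in each list of genes, for all peaks (left) and peaks with a q of at most 0.05 (right), with squares for the control library and circles for the inhibitor library. The mitochondrial ribosomal protein genes lie at 3.85% and 60.3% with all peaks and at 2 and 39 of 78 genes at that q, beside 5.47% and 26.1%, and 1.33% and 19.6%, for all protein-coding genes.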

How the data were processed

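Broad peaks of H3K79me2 ChIP-seq were analysed for 1 control and 1 inhibitor library. Per the submitters' processing notes the tools were BWA and MACS2 2.1.0 and the build mm10; what each did, the caller's options and any use of the inputs were not given in the sources used here. Per the deposited lists, each peak has a score, a fold (the authors' ratio to the background), a −log10 p and a −log10 q. In both deposited lists the −log10 p values start at about 1.00, and the depth is unknown.

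Peaks were intersected with RefSeq gene bodies of GRCm38.p6 with pandas 2.3.3 and numpy 2.4.6 under Python 3.11.15, and drawn with matplotlib 3.10.9. Start sites and strands came from the RefSeq promoter table. The planned window of the first 5 kb runs from the 5′ end of the gene body and needs the strand, so it could be placed for 69 members. Like length means between the 10th and 90th percentile of the members' lengths. Shares have 95% Wilson intervals, which cover counting over genes only. No p-value was computed, because each condition has 1 library. Coverage was tested on simulated peaks, and 200 of 200 genes set to be marked were recovered, with 0 called wrongly among 21887.

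The members and lists were chosen with earlier results of these data known. Named members were those marked or with a peak at q 0.05 in the control list, the 8 largest and 8 smallest differences, those without an inhibitor peak at that q, the 5 highest folds and 5 widest peaks, the 3 on either side of 50%, 10 fixed members and 5 that share a peak with their nearest gene. Members outside this rule are named to complete a count, or as relatives or partners of a named gene, and were chosen after their values were seen. Assembly factors were listed by 29 names, of which 2 were older names of genes already listed. Alternatives were stricter peaks, a control list limited to what the inhibitor list covers in length, merging within 1 kb, other windows and thresholds, and leaving out overlapping members or shared peaks.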

Additional observations from a re-analysis of the deposited data

How the results depend on the processing

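With peaks at a q of at most 0.05, a control list limited to what the inhibitor list covers in length, merging within 1 kb (0 gaps are that short), or members that overlap another coding gene left out, the 7 summary results moved by at most 1.5 times (counts) or stayed within their intervals (medians). The limit on length could change little, since the lists cover 234.7 and 233.6 Mb, and merging could change nothing, so neither shows stability. With −log10 q of at least 5, the marked counts were 0 and 10 in the control and inhibitor lists. The inhibitor median was then 0%, the median difference 0 points, and 11 members had an inhibitor value at least 25 points higher. With fold of at least 3 these were 0, 7, 0%, 0 points and 10. With the better covered 5 kb end, 8 members were marked in the control list, and the inhibitor median and median difference were 96.6% and 56.6 points. With the first 5 kb of the gene body they were 8, 97.7% and 56.4 points.

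With peaks that reach another coding gene left out, 1 and 17 members were marked, the inhibitor median was 25.9%, the median difference 19.4 points, 31 members had an inhibitor value and 3 a control value at least 25 points higher. The inhibitor minus control difference then turned negative for Mrpl30 (-34.9 points), Mrpl24 (-34.8), Mrpl12 (-27.6), Mrps14 (-23.0), Mrpl44 (-21.8) and Mrps11 (-4.17), since their wide inhibitor peaks are removed by construction. With any covered base as the threshold, 45 and 77 members counted as marked, and with 80% it was 1 and 29. Of 380 differences for named members, 275 stayed on the same side of 25 points as in the main setting, whatever their shift within it. Another 99 crossed that limit and 6 changed sign. Of the 275, 48 came from the control list limited in length and 48 from merging within 1 kb, which could change little or nothing.

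No paired analysis was possible because each condition has 1 library. The depth is unknown, so a gene without a control peak was not detectable at that depth and is not shown to lack the mark.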

Other observations

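Of 6 pseudogenes named after mitochondrial ribosomal protein genes, 4 were covered over 0% in both lists. Mrps36-ps3 was covered over 100% by a control peak above a q of 0.05 and over 0% by inhibitor peaks. Mrpl27-ps was covered over 0% by control peaks and over 100% by inhibitor peaks, also at that q. How reads shared by a pseudogene and its parent gene were placed was not given in the sources used here.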
